A study of Mastomys natalensis with 4 samples.

Results

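The endoplasmic reticulum (ER) chaperones and protein disulfide isomerases described here are 8 genes: the chaperones Hspa5, Hsp90b1, Calr and Canx and the disulfide isomerases Pdia3, Pdia4, Pdia6 and P4hb. They were chosen by symbol from the 8251 genes that the array's probe annotation names singly, and every probe set of each gene is reported, 12 in all. The samples were total RNA from stomach mucosa of Mastomys natalensis, hybridised to Affymetrix mouse U74 arrays. This rodent readily forms gastric carcinoids, tumours of the enterochromaffin-like (ECL) cells, which release histamine. There were 2 samples after 16 weeks of loxtidine (spelled loxitidine in the labels), a stage labelled ECL cell neoplasia, and 2 samples after 8 weeks of the same drug, a stage labelled ECL cell hyperplasia. Loxtidine blocks the histamine H2 receptor and so suppresses acid secretion. All samples of both groups received it, and untreated mucosa was not analysed here. Treatment time and lesion stage differed together, and strain, sex, age and whether a sample is 1 animal or a pool are not given in the labels used here. Each sample carries a lot label of its own, so lot and sample cannot be told apart.

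Proteins destined for secretion or for membranes fold in the ER. BiP (Hspa5), the ER member of the Hsp70 family, binds unfolded chains as they enter and holds the stress sensors of the unfolded protein response inactive, and GRP94 (Hsp90b1), the ER member of the Hsp90 family, finishes a narrower set of clients. Calnexin (Canx), a membrane protein, and calreticulin (Calr), its soluble relative, hold glycoproteins by their sugar chains and hand them to the isomerase ERp57 (Pdia3). The disulfide isomerases form, break and reshuffle disulfide bonds. P4hb is protein disulfide isomerase itself and also a subunit of collagen prolyl 4-hydroxylase, and Pdia4 (ERp72) and Pdia6 (P5) are relatives found in complexes with BiP. In the stomach these proteins serve cells with heavy secretory traffic, such as chief, mucous and endocrine cells, and in mouse and human cells ER stress induces most of the genes together.

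The arrays differed in ways that bear on these genes. The median intensity was 19.2 and 18.9 after 16 weeks, against 15.45 and 17.3 after 8 weeks. The 9 bacterial hybridisation controls above the floor, which report on the staining and scale of an array and not on the tissue, were all lower at 16 weeks, by a median of -0.57 on the log2 scale (range -0.75 to -0.24). The ratio of the 3′ to the 5′ control probe set, a sign of RNA quality, was 1.46 and 1.63 after 16 weeks and 1.26 and 1.16 after 8 weeks for beta-actin, and 0.89 and 0.65 after 16 weeks and 0.71 and 0.59 after 8 weeks for Gapdh. The part of these differences in the results below was not tested beyond the rescaling given there. Some markers of the labelled tissue were bright, and those given first here were picked by brightness. Others were dim, such as Tff2, named after its values were seen, with 10.8 and 15.8 after 16 weeks and 23.4 and 37.4 after 8 weeks. The proton pump subunit Atp4a of parietal cells read 4850 and 4034 after 16 weeks and 4442 and 5304 after 8 weeks, and the mucous cell peptide Tff1 read 4220 and 4094 after 16 weeks and 4875 and 4910 after 8 weeks. The endocrine granule protein Chga read 299 and 231 after 16 weeks and 141 and 242 after 8 weeks, but histidine decarboxylase (Hdc), the enzyme that defines ECL cells, was below the floor on all 4 arrays.

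Of the 8 genes 4 were lower in both samples at 16 weeks than in either sample at 8 weeks: Hspa5, Pdia3, Pdia6 and Hsp90b1. The other 3 measured genes, Pdia4, P4hb and Canx, overlapped between the groups, and Calr was not measured. The fit was limma's on log2 intensities over all 7883 tested probe sets, after values below a floor of 12.15 (the arrays' 40th percentile) had been raised to it. Differences are given as 16 weeks minus 8 weeks, each with its standard error (SE) over 2 samples per group, and the number of arrays limits their precision. With Benjamini-Hochberg adjustment over all probe sets limma called none at 0.05, 0% of those tested, and 1100 had an unadjusted p under 0.05, so every difference below is a measured value that did not pass the test. A gene is represented by its brightest tested probe set where genes are counted. Groups that do not overlap, lower at 16 weeks, were found for 21.1% of the 5864 tested genes, and groups that do not overlap, higher at 16 weeks, for 27.5%. Of the 7 measured genes 4 were of the first kind and 0 of the second. An unadjusted p under 0.05 in the lower direction was found for 5.78% of all tested genes and in the higher direction for 7.54%. Here 3 of the 7 measured genes had such a p, Hspa5, Pdia3 and Pdia6, all in the lower direction.

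**Figure D1:**
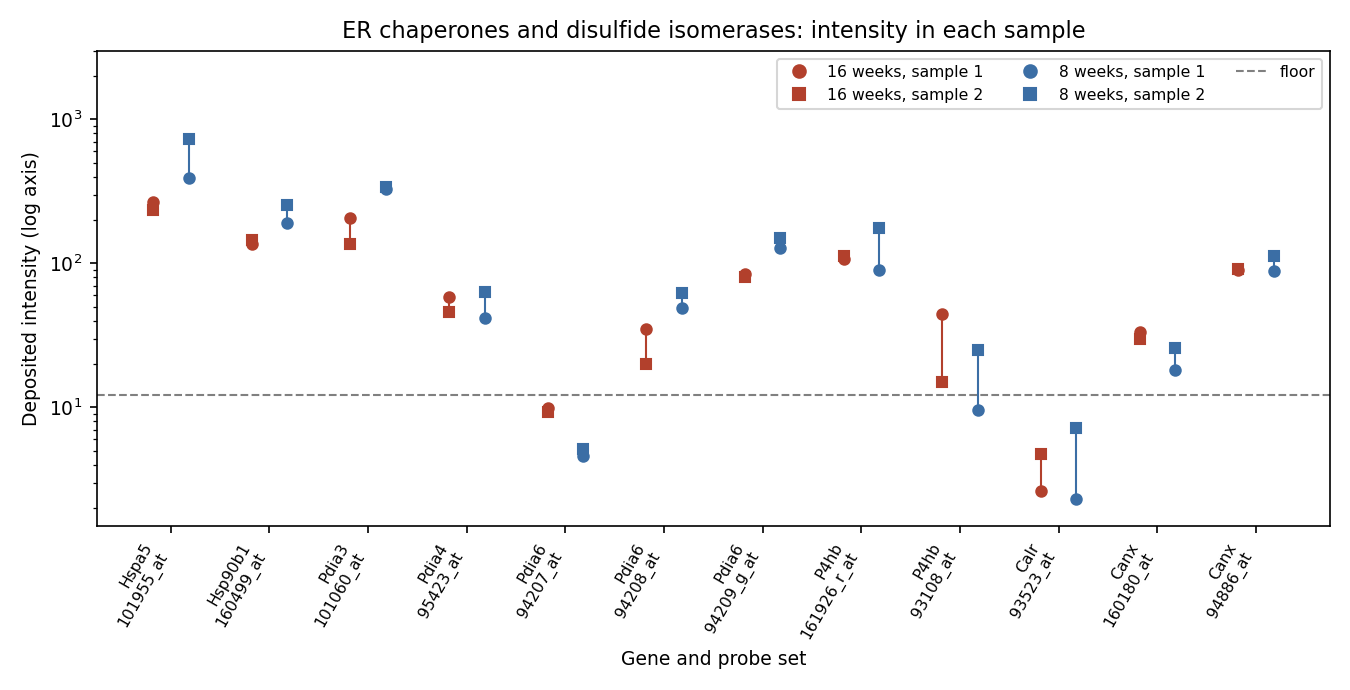
Deposited intensity (log axis) of the 12 probe sets of the 8 genes in each of the 4 samples, with 16 weeks (red) left of 8 weeks (blue), sample 1 as circles and sample 2 as squares, a line joining the samples of a group, and the floor of 12.15 dashed. Hspa5, Hsp90b1, Pdia3 and 2 Pdia6 probe sets have both 16-week samples below both 8-week samples, while Calr and the third Pdia6 probe set lie under the floor throughout.

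BiP was the brightest of the chaperone probe sets and had the largest difference among the genes' brightest probe sets. Hspa5 (probe set 101955_at) read 265 and 235 after 16 weeks, against 394 and 727 after 8 weeks. Both 16-week samples lay below both 8-week samples, but the 8-week samples stood further apart from each other than the lower of them did from the 16-week samples. The log2 difference was -1.10 ± 0.36 (SE), 2.14-fold lower, with an unadjusted p of 0.0288 and a limma adjusted p of 0.335. The size rested on 8-week sample 2. Without that sample the difference was -0.66, and without 8-week sample 1 it was -1.54.

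GRP94 (Hsp90b1, 160499_at), the other abundant soluble chaperone, read 137 and 146 after 16 weeks, against 191 and 256 after 8 weeks. The groups did not overlap, and 8-week sample 2 was again the highest. Its log2 difference was -0.65 ± 0.27 (1.57-fold lower, adjusted p = 0.367), and without 8-week sample 2 it was -0.43.

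The lectin chaperones gave no such pattern. Calnexin (Canx) read 90.5 and 91.0 after 16 weeks, against 87.9 and 113 after 8 weeks, on its brighter probe set (94886_at). The 16-week values lay within the 8-week range, the log2 difference was -0.13 ± 0.26, and its 95% interval ran from -0.79 to 0.52, so a difference as large as that of Hsp90b1 was within it. The dimmer Canx probe set (160180_at) went the other way, with 33.2 and 29.6 after 16 weeks against 18.1 and 26.0 after 8 weeks (0.53 ± 0.29, adjusted p = 0.445). There the groups did not overlap and 16 weeks was higher. The direction for Canx therefore depends on the probe set. Calreticulin (Calr, 93523_at) read 2.6 and 4.7 after 16 weeks and 2.3 and 7.2 after 8 weeks, under the floor on all 4 arrays. A dim reading by a mouse probe set on RNA of another genus does not show that the transcript was missing.

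Among the disulfide isomerases, the calnexin partner Pdia3 and the BiP partner Pdia6 were lower at 16 weeks. Pdia3 (101060_at) read 206 and 136 after 16 weeks, against 327 and 337 after 8 weeks. Its 8-week samples were nearly equal, and the spread lay between the 16-week samples. The log2 difference was -0.99 ± 0.30 (1.99-fold lower, unadjusted p = 0.0201, adjusted p = 0.326), and it was -0.97 without 8-week sample 2, so unlike that of Hspa5 it did not rest on that sample. Without 16-week sample 2, the lower one, it was -0.69.

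Pdia6 had 3 probe sets. The brightest (94209_g_at) read 84.3 and 80.8 after 16 weeks, against 129 and 151 after 8 weeks, a log2 difference of -0.75 ± 0.24 (1.69-fold lower, unadjusted p = 0.0255, adjusted p = 0.331). The second (94208_at) read 34.9 and 20.1 after 16 weeks, against 49.1 and 62.3 after 8 weeks (-1.06 ± 0.36, adjusted p = 0.338). Both separated the groups in the same direction, but they were designed on the same mouse sequence record and are not independent measurements. The third (94207_at) read 9.9 and 9.2 after 16 weeks and 4.6 and 5.1 after 8 weeks, all under the floor, and was not tested. With each sample left out in turn the brightest probe set stayed between -0.87 and -0.64, the narrowest such range of the 4 genes.

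Pdia4 and P4hb did not separate the groups. Pdia4 (95423_at) read 58.4 and 45.6 after 16 weeks, against 41.7 and 62.8 after 8 weeks, so that the 16-week values lay inside the 8-week range. Its log2 difference was 0.01 ± 0.32, with a 95% interval from -0.80 to 0.82 that held changes as large as that of Pdia6 in either direction. P4hb read 108 and 113 after 16 weeks, against 89.5 and 176 after 8 weeks, on its brighter probe set (161926_r_at, a design with reduced probe-selection rules). The difference there was -0.19 ± 0.38 (95% interval -1.17 to 0.79), and the 8-week samples alone differed by 0.98. The dimmer P4hb probe set (93108_at) read 44.6 and 14.9 after 16 weeks, against 9.6 and 24.9 after 8 weeks (0.57 ± 0.64), and so scattered within both groups. For P4hb as for Canx the 2 probe sets gave opposite signs.

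**Figure D2:**
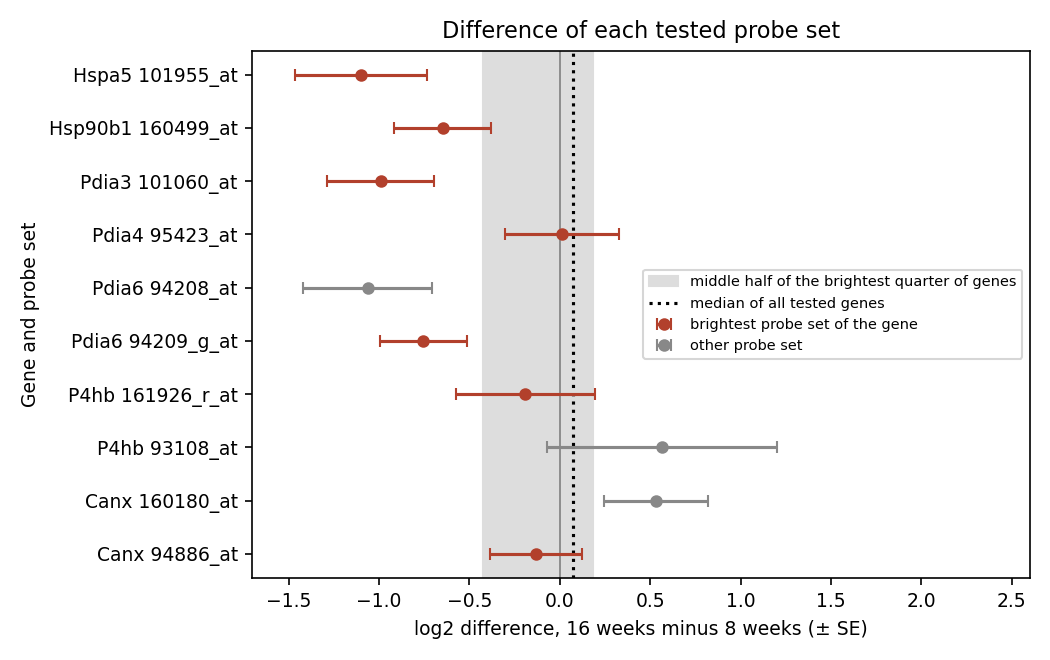
Log2 difference, 16 weeks minus 8 weeks, with its SE (n = 2 samples per group) for the 10 tested probe sets, those representing a gene in red and the others in grey. The grey band is the interquartile range of the brightest quartile of tested genes and the dotted line the median of all tested genes (0.07). Hspa5, Pdia3, Hsp90b1 and both Pdia6 probe sets lie left of the band.

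As a group, 6 of the 7 measured genes were lower at 16 weeks and 1 (Pdia4) was higher, with a median log2 difference of -0.65 and a range from -1.10 to 0.01. Over all 5864 tested genes 44.7% were lower and the median was 0.07. Brightness moved with the difference across the array. In the brightest quartile of tested genes, which holds all the measured members but Pdia4, the median was -0.13, 60.8% of genes were lower and 36.3% had both 16-week values below both 8-week values. In the dimmest quartile the median was 0.19. The members' median was also lower than that of the brightest quartile. Its interquartile range ran from -0.43 to 0.19, and Hspa5, Pdia3, Pdia6 and Hsp90b1 lay below that range while P4hb and Canx lay inside it. The quartiles were formed after the data were seen and give a description only. In these bulk samples fewer secretory cells and less RNA per cell cannot be told apart.

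The samples of 1 group also differed in these genes. In sample 2 over sample 1 after 8 weeks all 7 measured genes were higher, with a median log2 ratio of 0.43, and all 10 tested probe sets were higher. Over all tested genes 62.4% were higher in that sample and the median ratio was 0.15. The shift was not particular to the members. Of the other ER folding factors described below 24 of 27 were higher (median 0.34). For the unfolded protein response it was 10 of 14 (0.32), and for translocation and N-glycosylation 16 of 23 (0.29). ER-associated degradation had 6 of 10 (0.09) and the cytosolic and mitochondrial chaperones 16 of 24 (0.08). Among the members the largest ratios were those of P4hb (0.98), Hspa5 (0.88) and Pdia4 (0.59), and the smallest was that of Pdia3 (0.04). Between the 16-week samples 3 of the 7 were higher in sample 2, with a median of -0.06. Without 8-week sample 2 the members' median was -0.43 and 4 of 7 were lower, Hspa5, Hsp90b1, Pdia3 and Pdia6. As the groups did not overlap in these 4 genes, they had to stay lower without that sample. Parietal cell markers moved with this sample: all 6 tested were higher in 8-week sample 2 than in sample 1, and their summed intensity was 7471 and 6666 after 16 weeks, against 7184 and 9250 after 8 weeks. Their part in the chaperone values was not tested.

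The scale of the arrays moved the level of every difference under the 3 rescalings tried. Alignment on the hybridisation controls and the common median multiply all probe sets of an array alike. The order of the 7 genes therefore could not change under them. Under quantile normalization the order could have changed but did not. When the arrays were aligned on the hybridisation controls, the median of all tested genes became 0.45. On that scale Hspa5 gave -0.67, Pdia3 -0.56, Pdia6 -0.32 and Hsp90b1 -0.21, whereas P4hb (0.24), Canx (0.30) and Pdia4 (0.45) were higher at 16 weeks. The members' median was then -0.21, which is -0.66 relative to all tested genes. On the deposited scale it was -0.72 relative to all tested genes. With the arrays on a common median, where the median of all tested genes was -0.13, all 7 measured genes were lower, with Hspa5 at -1.32 and Pdia4 at -0.21.

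**Figure D3:**
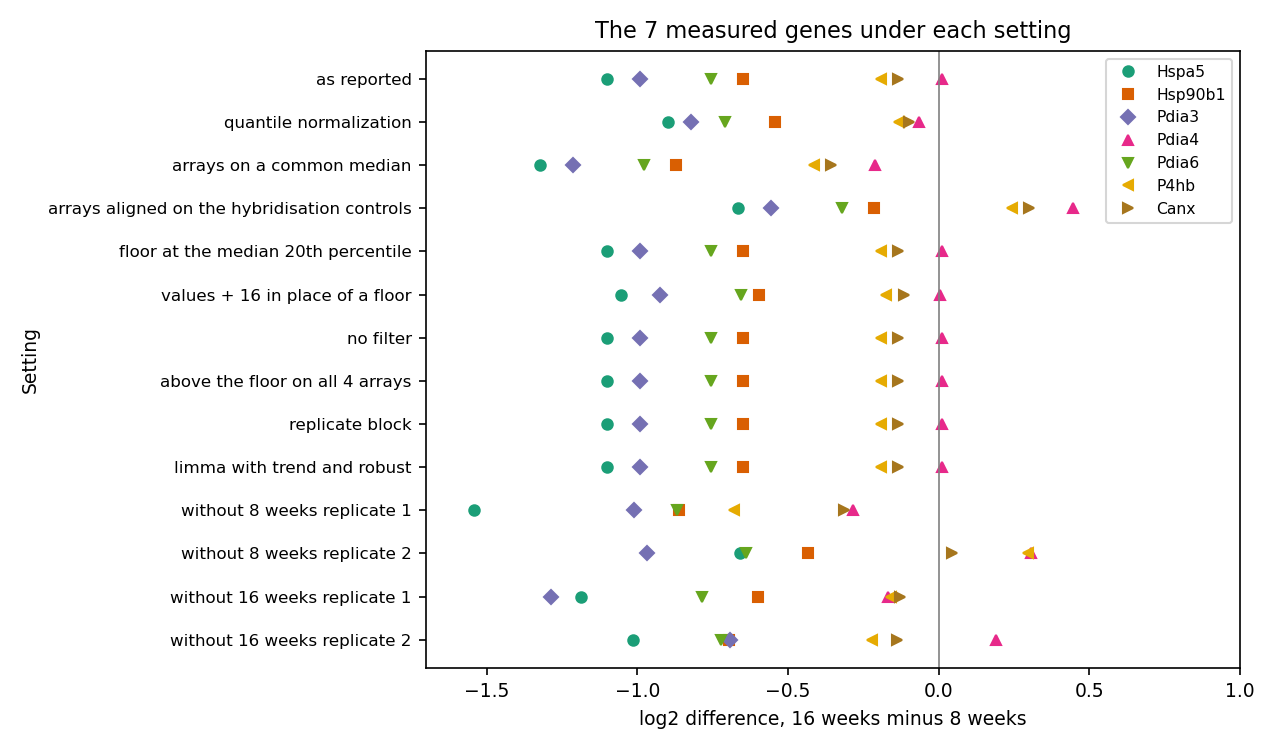
Log2 difference, 16 weeks minus 8 weeks, of the 7 measured genes (brightest tested probe set) under each of 14 settings, from the fit as reported at the top to those with a sample left out at the bottom. Hspa5, Pdia3, Pdia6 and Hsp90b1 stay left of 0 in every row, while Pdia4, P4hb and Canx cross it. For the former, whose groups do not overlap, only the rescalings could have moved a point across 0.

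A ratio of 2 genes on the same array is not moved by the scale of that array, so each member was also set against Canx within each sample, a comparison chosen after the data were seen. The log2 ratio to Canx, centred on the 4 samples, was -0.39 and -0.58 after 16 weeks against 0.22 and 0.75 after 8 weeks for Hspa5, a difference of -0.97. The differences were -0.86 for Pdia3, -0.62 for Pdia6 and -0.51 for Hsp90b1. In each of these 4 genes both 16-week ratios lay below both 8-week ratios. The groups of these genes did not overlap before the ratio was taken either. The share of all tested genes whose ratio to Canx separates the groups was not computed. The ratio of Pdia4 differed by 0.15 and that of P4hb by -0.06, with overlapping groups. These ratios were not tested, rest on the brighter Canx probe set and say nothing of which gene differed in absolute level.

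**Figure D4:**
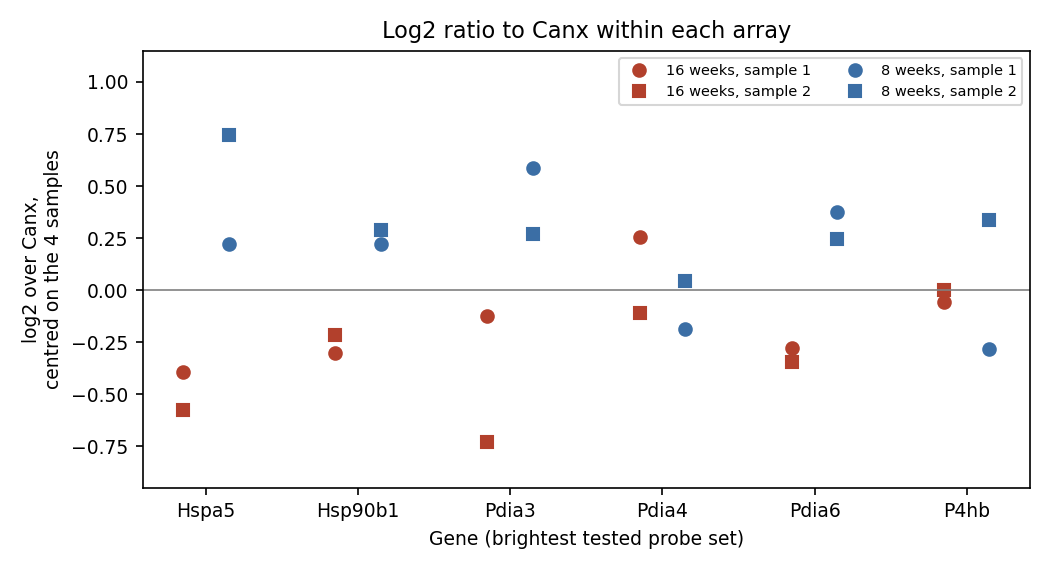
Log2 ratio of each gene to Canx on the same array, centred on the mean of the 4 samples, for the 6 other measured genes, with 16 weeks (red) left of 8 weeks (blue), sample 1 as circles and sample 2 as squares. For Hspa5, Hsp90b1, Pdia3 and Pdia6 the 16-week points all lie below 0 and the 8-week points above it, and for Pdia4 and P4hb they mix.

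Other ER folding factors, which work beside the members as cofactors, prolyl isomerases, oxidases and glycoprotein sensors, were split. Of 40 listed genes 27 were tested, 14 lower and 13 higher at 16 weeks, with a median of -0.05. None passed the test, 5 had an unadjusted p under 0.05 in the lower direction and 1 in the higher. The collagen chaperone HSP47 (Serpinh1) read 9.1 and 8.5 after 16 weeks, both under the floor, against 44.7 and 23.3 after 8 weeks, at least 2.66-fold lower (adjusted p = 0.314). Calumenin (Calu), a calcium-binding protein of the secretory pathway, read 40.4 and 33.1 after 16 weeks, against 67.3 and 71.4 after 8 weeks (-0.92 ± 0.25). Manf, a small ER protein that is induced by ER stress and binds BiP, read 86.7 and 64.4 after 16 weeks, against 125 and 162 after 8 weeks (-0.93 ± 0.29). Cyclophilin B (Ppib), an ER prolyl isomerase and the brightest tested gene of this list, named after its values were seen, read 315 and 242 after 16 weeks, against 470 and 498 after 8 weeks (-0.81 ± 0.26). In contrast, Uggt1, which recognises misfolded glycoproteins and returns them to calnexin and calreticulin, read 26.4 and 24.2 after 16 weeks, against 12.7 and 3.9 after 8 weeks (1.02 ± 0.23, adjusted p = 0.309). Of its 8-week values 1 was under the floor. The BiP cofactors Hyou1 and Dnajb11 were under the floor on all 4 arrays.

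The regulators and targets of the unfolded protein response did not share the members' direction. Of 28 listed genes 14 were tested, 7 lower and 7 higher, with a median of 0.01, and 1 had an unadjusted p under 0.05. This was the ER membrane protein wolframin (Wfs1), with 35.0 and 10.8 after 16 weeks against 58.2 and 52.0 after 8 weeks (-1.42 ± 0.53, adjusted p = 0.353), 1 of the 16-week values being under the floor. Ppp1r15a (GADD34), which restores translation after stress by directing a phosphatase to eIF2alpha, read 73.2 and 74.9 after 16 weeks, against 32.6 and 57.9 after 8 weeks (0.77 ± 0.35). Selenos and Bcap31, membrane proteins that serve ER protein quality control and export, gave -0.41 ± 0.26 and -0.35 ± 0.25. Of the 5 transcription factors tested in this list 3 are named here, after their values were seen. Xbp1, which induces chaperone and secretory genes, read 167 and 154 after 16 weeks, against 131 and 181 after 8 weeks (0.06 ± 0.27). Atf4, the effector of the PERK branch, read 258 and 375 after 16 weeks, against 352 and 324 after 8 weeks (-0.12 ± 0.29). Ddit3 (CHOP), which Atf4 induces, and the sensor kinase Eif2ak3 (PERK) were under the floor on all 4 arrays. Creb3l1, an ER-anchored factor released by cleavage under stress, read 428 and 415 after 16 weeks, against 282 and 405 after 8 weeks (0.32 ± 0.28). For Creb3l1 the groups did not overlap, for Xbp1 and Atf4 they did, and array intensity does not show Xbp1 splicing.

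ER-associated degradation, which draws misfolded proteins back out for destruction, held both directions. Of 22 listed genes 10 were tested, 6 lower and 4 higher, with a median of -0.31. The derlins, channel proteins of this route, went apart: Derl1 read 50.4 and 62.2 after 16 weeks, against 34.1 and 31.2 after 8 weeks (0.78 ± 0.25, and 0.11 on a dimmer probe set), and Derl2 read 50.4 and 38.4 after 16 weeks, against 62.7 and 93.1 after 8 weeks (-0.80 ± 0.32). Erlin1, a membrane scaffold, and Edem2, a mannosidase that marks glycoproteins for disposal, gave 1.53 ± 0.67 and 0.55 ± 0.24, with 1 Erlin1 value at 8 weeks under the floor. The list for translocation into the ER and N-glycosylation had 23 tested genes of 34 listed, 11 lower and 12 higher, and a median of 0.03. The main pore subunit Sec61a1 read 245 and 281 after 16 weeks, against 380 and 376 after 8 weeks (-0.53 ± 0.24, but 0.23 on a second, equally bright probe set). Its paralog Sec61a2, with 1 value at 8 weeks under the floor, gave 0.85 ± 0.36. Srp14, of the signal recognition particle, and Dad1, of the oligosaccharyltransferase, gave -0.51 ± 0.23 and -0.49 ± 0.26, but Dad1 gave 0.47 and -0.06 on dimmer probe sets near the floor.

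Chaperones outside the ER were lower in the majority too. Of 32 listed cytosolic and mitochondrial chaperones 24 were tested, 17 lower and 7 higher, with a median of -0.39. Cct3, a subunit of the cytosolic chaperonin, gave -0.79 ± 0.30 and the mitochondrial chaperones Hspa9 and Hspe1 -0.76 ± 0.30 and -0.76 ± 0.31, while the Hsp70 relative Hspa1l, under the floor in both 8-week samples, was at least 2.51-fold higher at 16 weeks (adjusted p = 0.301). No list was tested against another, so the medians stand side by side as description.

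**Figure D5:**
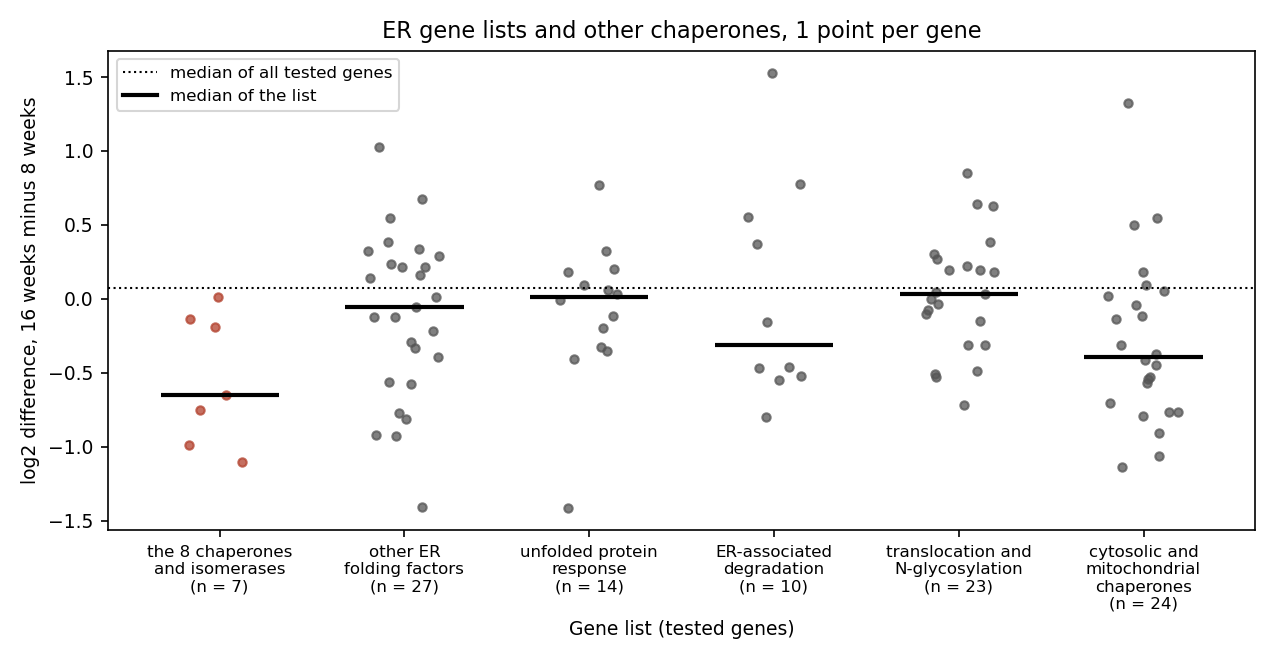
Log2 difference, 16 weeks minus 8 weeks, of every tested gene (1 point each, brightest tested probe set) in the 8-gene set (red), the other ER lists and the chaperones of the cytosol and mitochondria, with the median of each list as a bar and that of all tested genes (0.07) dotted. The median is -0.65 for the chaperones and isomerases, -0.39 for the cytosolic and mitochondrial chaperones and -0.05 for the other ER folding factors.

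Summed markers of several cell types were lower at 16 weeks, as 6 of the 7 measured members were, and others were higher or overlapped. The summed intensity of 10 smooth muscle markers was 1827 and 1848 after 16 weeks, against 3550 and 3069 after 8 weeks, and that of 12 fibroblast and matrix markers was 2263 and 2183 after 16 weeks, against 3524 and 3029 after 8 weeks. The groups did not overlap in either sum, but the difference in the second was mostly that of Col3a1. This gene read 586 and 509 after 16 weeks, against 1949 and 1280 after 8 weeks. By gene, 7 of 9 tested smooth muscle markers but 6 of 12 fibroblast and matrix markers were lower at 16 weeks. Surface and neck mucous markers, 6 genes, summed to 4705 and 4480 after 16 weeks, against 5410 and 5571 after 8 weeks. Most of that sum was Tff1. By gene 4 were lower at 16 weeks and 2 higher. The higher genes, named after their values were seen, were Krt20 (1.22 ± 0.32) and Ctse (0.71 ± 0.32, but -0.13 on a dimmer probe set). The 2 chief cell markers summed to 1370 and 1677 after 16 weeks, against 1818 and 1795 after 8 weeks. Nearly all of that sum was Chia1 (-0.28 ± 0.24). The other marker, Rnase1, went the other way (0.88 ± 0.98), with a value under the floor in each group. The 8 markers of intestinal-type epithelium summed to 142 and 153 after 16 weeks, against 1152 and 225 after 8 weeks. All 5 of them that were tested were lower at 16 weeks (median -1.46), and Cdx1 and Cdx2, the transcription factors that define intestinal epithelium, were under the floor on all 4 arrays. Plasma and B cell markers, also of a secretory lineage, went the other way: 8 of 9 were higher at 16 weeks, and their sum was 398 and 460 after 16 weeks, against 378 and 323 after 8 weeks. Squamous forestomach markers, 10 genes, summed to 327 and 1026 after 16 weeks and 482 and 436 after 8 weeks. Pancreatic acinar markers, whose cells make much secreted enzyme, summed to 2740 and 7681 after 16 weeks, against 4247 and 1418 after 8 weeks. The sum over these 10 genes was highest in 16-week sample 2 and lowest in 8-week sample 2. On their brightest probe sets the 7 measured members were all highest in 8-week sample 2. Hspa5, Pdia3 and Pdia6 were lowest in 16-week sample 2. Hsp90b1 was lowest in 16-week sample 1, and Pdia4, P4hb and Canx in 8-week sample 1. Taken singly, 9 acinar markers had a positive log2 difference and 1 a negative one (median 0.73). Single genes departed from the sum, among them colipase (Clps), named after its values were seen, with 391 and 389 after 16 weeks against 395 and 484 after 8 weeks. The 19 ECL and neuroendocrine markers, 15 of them tested, summed to 1662 and 1489 after 16 weeks and 1617 and 1542 after 8 weeks. That sum joins opposite directions, with 7 tested genes lower and 8 higher at 16 weeks. Of the 15 tested, 2 were lower and 5 higher without overlap, against 21.1% and 27.5% of all tested genes. Gastrin (Gast), the hormone of antral G cells, and the neuroendocrine protein Resp18 were both named after their values were seen. Gast read 25.8 and 63.0 after 16 weeks, against 328 and 170 after 8 weeks (-2.55 ± 0.55, adjusted p = 0.307). Resp18 read 186 and 241 after 16 weeks, against 119 and 93.8 after 8 weeks (unadjusted p = 0.0153, limma). The part of these cell types in the chaperone values was not tested.

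The genes whose profile was most like that of Hspa5 were not chaperones. Likeness was the root mean square difference between log2 values centred over the 4 samples, computed for the 4408 other genes above the floor on all 4 arrays, and with 4 samples it is a coarse measure. The nearest non-members were Nav2 (0.06), Smim20 (0.12), Arntl (0.15), Klf5 (0.16), Nfkbie (0.17) and Kcnk4 (0.18). Nav2 read 57.5 and 49.1 after 16 weeks, against 88.2 and 144 after 8 weeks. Among the members Pdia6 ranked 60 of 4408 (0.29), Hsp90b1 62 (0.29) and Pdia3 136 (0.34), whereas P4hb ranked 629, Canx 1068 and Pdia4 1413.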

How the data were processed

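The series table holds the authors' deposited intensity of each of 12488 probe sets in each of 4 samples, on a linear scale. Nothing in the sources used here tells how they were computed or scaled. The 4 arrays' trimmed means lay within 4.76% of their mean, so the deposited scale was kept. Groups came from the labels' descriptions. The labels do not call the samples of a group separate animals, so the spread behind each p-value may be purely technical.

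Probes are of mouse sequence, so mismatches lower the signal by gene, and differences were taken within a probe set. Names came from the platform's annotation: of 12422 probe sets other than controls 10833 carried a single symbol, 396 carried more than 1 and got no name, and 1193 are unnamed here. Values were floored (12.15), log2 was taken, and those probe sets that exceeded it on 2 or more of the 4 arrays were tested across all genes with limma 3.58.1 in R 4.3.3 (2-sided, Benjamini-Hochberg, 0.05), after a check on simulated data. An exact permutation test of 2 against 2 samples cannot give a 2-sided p below 0.333.

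The members, gene lists and alternatives were chosen with earlier results of these data known. Named were all members, up to 4 genes of each other list by smallest p and the brightest markers of cell types. The 6 genes most like Hspa5 were named too. Non-member genes given as under the floor on all 4 arrays were picked outside this rule, and not all such genes are named. Others are marked as chosen after their values were seen. Of 8 members 7 passed the filter.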

Additional observations from a re-analysis of the deposited data

How the results depend on the processing

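The limits are those of 2 samples per group and of mouse probes on another genus: no single gene passed, and dim probe sets (Calr, 1 of Pdia6) give no measurement. limma called 0 probe sets under all alternatives but 1: without a filter it called 22, 11 of them lower and none a member, with 0 of the 22 failing the filter used. With the replicate block, since the samples share only a number (correlation of their deviations -0.05), it called 0, and 987 had an unadjusted p under 0.05. Hspa5, Hsp90b1, Pdia3 and both tested Pdia6 probe sets were lower under all 13 alternatives, with adjusted p for Hspa5 from 0.245 to 0.627.

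The brighter P4hb probe set changed sign when aligned on the hybridisation controls (0.24) and without 8-week sample 2 (0.30; leave-one-out range -0.68 to 0.30), as did the brighter Canx probe set (0.30 and 0.046; range -0.31 to 0.046). The dimmer P4hb probe set did so without 16-week sample 1 (-0.22; range -0.22 to 1.36). Pdia4 did so with quantile normalization (-0.064), on a common median (-0.21) and without 8-week sample 1 (-0.28) or 16-week sample 1 (-0.17), with a range up to 0.31. The cause was not tested.

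With a sample left out the median ranged from -0.86 to -0.43 for the members (4 to 7 of 7 lower), from -0.31 to 0.31 for other ER folding factors, from -0.18 to 0.18 for the unfolded protein response (5 to 11 of 14 lower), from -0.46 to 0.042 for ER-associated degradation, from -0.12 to 0.11 for translocation and N-glycosylation, and from -0.42 to -0.14 for cytosolic and mitochondrial chaperones. Aligned on the hybridisation controls these medians were -0.21, 0.38 (7 lower), 0.37 (2 lower), 0.12, 0.46 (4 lower) and 0.062 (11 lower). On a common median they were -0.87 for the members, -0.23 (11 lower) for the unfolded protein response, -0.18 for translocation and -0.60 for the cytosolic and mitochondrial chaperones. Without a filter, which adds probe sets at the floor, the members' median was -0.42, that of ER-associated degradation 0 and that of the cytosolic and mitochondrial chaperones -0.25. The median of other ER folding factors became 0.012 with quantile normalization, 0.15 with a lower floor and 0.0020 with values + 16, and that of ER-associated degradation 0.0053 with a lower floor. Without probe sets with a suffix the unfolded protein response gave -0.062, and averaging over the probe sets of each gene the cytosolic and mitochondrial chaperones gave -0.20, while 4 of 7 members were lower, as P4hb and Canx turned. Of the 193 comparisons of counts and medians with an alternative 154 stayed within the limits set for the same result. The limits were a fixed fold range for counts, and an unchanged sign and the spread between replicates for medians. Some comparisons could not move, since the replicate block and other limma options leave each list's median and count as they were. The tally is therefore no measure of stability.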
